A study of Mus musculus with 17 samples.

Results

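The genes described here are the protein-coding genes with names that begin with *Zfp* or *Zkscan*, or with *Zscan* apart from *Zscan4*, in a deposited table of read counts from mouse oocytes. They numbered 70 of the 2615 genes listed, with 66 *Zfp*, 2 *Zkscan* and 2 *Zscan* names on 17 chromosomes. The GENCODE annotation holds 419 protein-coding genes of the same names, of which 16.7% were listed. The names mark zinc finger proteins. The naming rule reads no count, but it was set with earlier results of these data known, and it applies to a table that its authors had filtered on a difference between the groups.

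Control oocytes came from *Ehmt2*(flox/flox) mice and Ehmt2 GKO oocytes from *Ehmt2*(flox/flox); *Gdf9*-Cre mice, all C57BL/6J, aged 8 weeks and labelled as MII oocytes, that is, at metaphase of the second meiotic division. EHMT2 (G9a) is a histone methyltransferase for lysine 9 of histone H3, and the study asked how its loss from the oocyte changes meiosis and transcription. Both groups carried the floxed alleles, and Cre, driven by the *Gdf9* promoter that is active in oocytes from primordial follicles onwards, removed exons 4 to 20 in the Ehmt2 GKO mice. Each group had 3 RNA libraries, control 1, 2 and 6 and GKO 3, 4 and 5, out of 17 samples in all. The labels do not say how many oocytes or animals made up a library, so P values measure only the spread between libraries. They also do not say whether each Ehmt2 GKO oocyte had extruded its polar body. The paper reports that few Ehmt2 GKO oocytes completed the first meiotic division. Meiotic stage may therefore differ between the groups, and its effect cannot be told apart from that of the deletion.

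Most mouse zinc finger genes of these names encode KRAB zinc finger proteins. In these, an array of C2H2 fingers reads a DNA sequence, often in a retroelement, and the KRAB domain recruits the corepressor TRIM28 (KAP1), which brings the H3K9 methyltransferase SETDB1 and heterochromatin protein HP1. A smaller family carries a SCAN domain, which pairs such proteins with each other. KRAB zinc finger genes lie in dense clusters that grew by tandem duplication, and the clusters themselves carry H3K9 methylation in many cell types.

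Every one of the 2615 listed genes had a deposited adjusted P below 0.05 for a difference between these same 6 libraries. A test on the table therefore repeats the selection, and a count of passing genes describes how the list was made as much as the oocytes. What the selection left free was the direction of each gene, its size and its values by library. Reads over the listed genes were 4060653 to 4258350 per library, and reads over genes that were not listed are unknown. *Ehmt2* itself was not analysed here. Among cell type markers, 3 of 25 cumulus and granulosa genes were listed, with summed counts of 374 to 472 in control and 393 to 454 in Ehmt2 GKO libraries. *Ptgs2*, which cumulus cells induce at ovulation, was the one that moved most, with 6, 10 and 14 counts in control and 107, 74 and 59 in Ehmt2 GKO libraries. *Runx2* was also higher, with 98, 39 and 78 against 117, 126 and 146. *Kitl* went the other way, with 368, 325 and 335 against 225, 254 and 188. Of 22 oocyte genes, 7 were listed, with summed counts of 49338 to 61691 and 57276 to 60916, and none of the listed markers was at 0 in any library. The 7 oocyte genes did not move together, with 4 lower and 3 higher in Ehmt2 GKO oocytes, at log2 fold changes from -1.05 to 0.51. The part of other cells in the results below was not tested. In bulk oocytes, a change in the share of cells that hold an RNA and a change in RNA per cell cannot be told apart.

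Of the 69 zinc finger genes tested, 40 were lower and 29 higher in Ehmt2 GKO oocytes. A gene was called when it differed more than 2-fold in either direction (1 on the log2 scale) with an adjusted P under 0.01 in edgeR's quasi-likelihood test, and 24 passed, 9 higher and 15 lower. That is 34.8% of the zinc finger genes, beside 35.7% of all listed genes tested (18.7% higher and 16.9% lower). The share called was thus close to the background and says nothing particular of these genes. Control and Ehmt2 GKO libraries did not overlap in 68 of the 70, again beside 98.3% of all genes tested. With 3 libraries against 3, an exact permutation test of a single gene cannot give a P below 0.1. The median log2 fold change was -0.49 in the zinc finger genes and -0.32 over all genes tested, where higher and lower genes were nearly equal in number. The latter value has no stable direction, since it was 0.31 with no filter and 0.26, 0.27 and 0.24 without control 1, 2 and 6. Their summed counts were 59978, 61834 and 66034 in control and 60024, 59382 and 54123 in Ehmt2 GKO libraries, or 1.27% to 1.55% of the listed reads, and after normalisation the Ehmt2 GKO mean was 8.1% below the control mean.

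Counted by protein domain, KRAB genes were mostly lower and SCAN genes all higher, a split that was described and not tested because the genes were chosen with these data known. The table gives 1 domain hit for each gene, and 39 of the 70 were given as KRAB, 10 as SCAN and 21 as neither. Of the 38 KRAB genes tested, 31 were lower and 7 higher (median -0.58). All 10 SCAN genes were higher (median 0.70). The remaining 21 were mixed, with 9 lower and 12 higher (median 0.37). Over all genes tested, 50.6% were lower. A gene can carry both domains, so a gene given as SCAN, such as a *Zkscan* gene, may also hold a KRAB domain. Likewise, a gene given as neither may hold a domain that was not its listed hit.

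**Figure D1:**
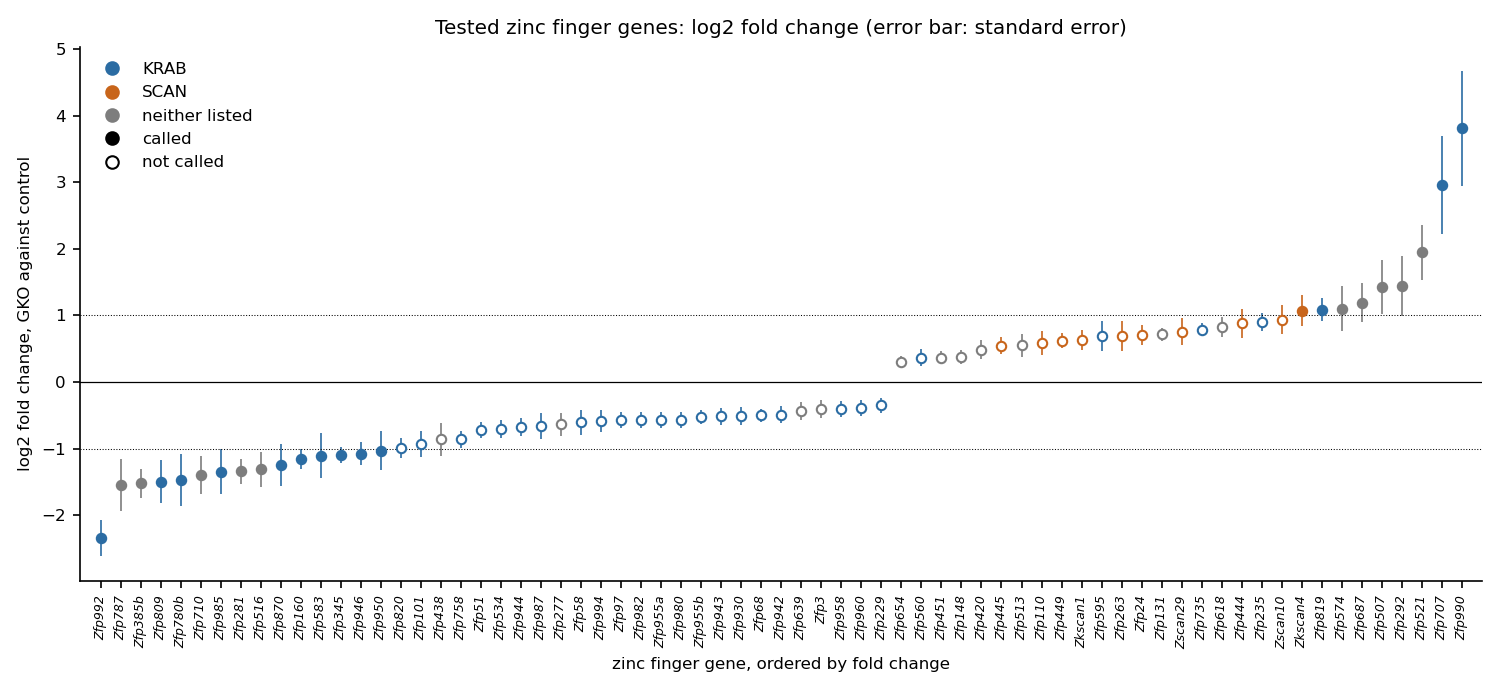
Log2 fold change of Ehmt2 GKO against control oocytes (vertical axis) with its standard error for each of the 69 zinc finger genes tested, in order of fold change (horizontal axis). Blue marks KRAB, orange SCAN and grey neither, filled points were called, and dotted lines stand at log2 fold changes of 1 and -1. The 10 orange points all lie above 0, and 31 of the 38 blue points lie below it.

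Normalised counts were also summed over each class in every library. The KRAB genes summed to 46666, 47550 and 51013 in control and 40048, 42337 and 35769 in Ehmt2 GKO libraries, 18.6% below the control mean. The SCAN genes summed to 2937, 3271 and 2878 in control and 4791, 4896 and 4647 in Ehmt2 GKO libraries, 57.8% above it. All 3 Ehmt2 GKO libraries lay outside the range of the control libraries in both sums, in opposite directions.

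**Figure D2:**
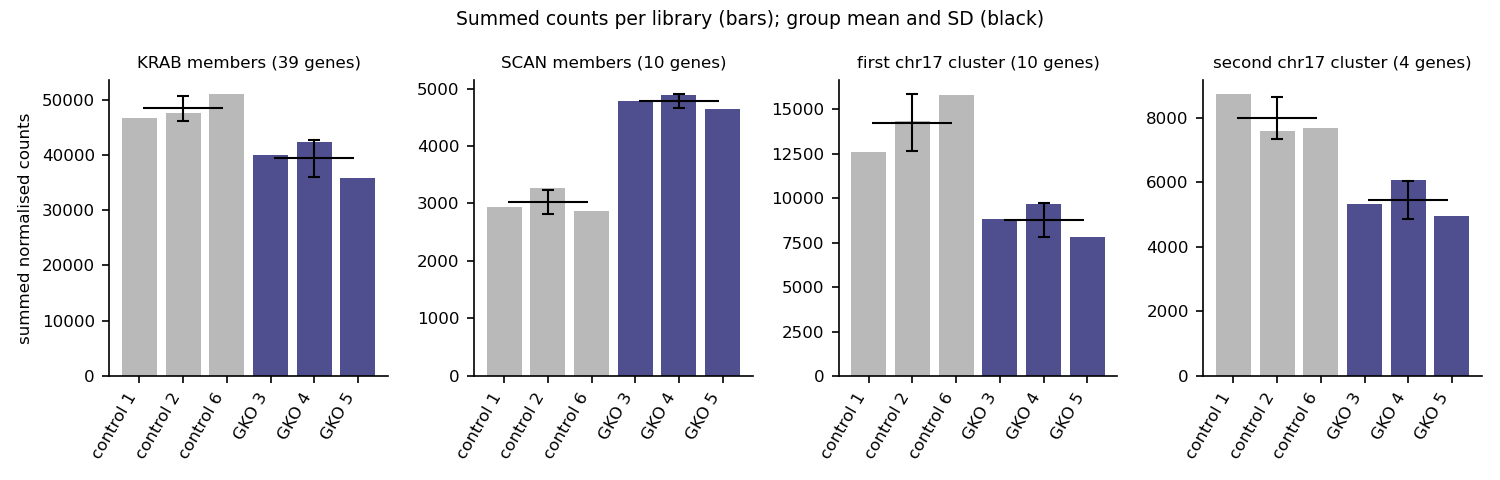
Summed normalised counts (vertical axis, from 0) in each of the 3 control and 3 Ehmt2 GKO libraries (bars) for the 39 KRAB genes, the 10 SCAN genes and 2 gene clusters of chromosome 17, with the group mean and SD in black. The SCAN sum is higher and the other 3 sums are lower in every Ehmt2 GKO library than in every control library.

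Many of the lower KRAB genes were neighbours. With at most 1 Mb between neighbours and at least 3 listed genes, 27 of the 70 fell into 6 clusters on chromosomes 4, 7, 13 and 17. No other listed gene lay inside any of them. Of the 26 clustered genes tested, 23 were lower (88.5%), beside 17 of 43 outside clusters (39.5%). Chromosome 17 held 17 of the 70, more than any other chromosome, and 16 of these were lower. Of the 81 other genes tested on chromosome 17, 61.7% were lower.

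The longest cluster, chr17:21008941-22456689 (GRCm38), held *Zfp160*, *Zfp51*, *Zfp229*, *Zfp820*, *Zfp942*, *Zfp943*, *Zfp994*, *Zfp944*, *Zfp758* and *Zfp946*, all KRAB genes. These are 10 of the 19 genes of such names annotated there, and all 10 were lower, with log2 fold changes from -1.15 to -0.35. Their normalised counts summed to 12624, 14341 and 15823 in control and 8851, 9705 and 7796 in Ehmt2 GKO libraries, 38.4% below the control mean. No near-identical transcript outside the gene was found for any of the 10. Only 2 of them, *Zfp160* and *Zfp946*, passed the call, beside 35.7% of all listed genes tested. *Zfp160* had 748, 757 and 659 counts in control and 408, 302 and 270 in Ehmt2 GKO libraries (log2 fold change -1.15 ± 0.15 SE, adjusted P 7.12e-06 in edgeR's quasi-likelihood test). *Zfp946*, at the other end of the cluster, had 578, 654 and 833 against 385, 360 and 236 (-1.08 ± 0.17 SE). *Zfp820* came next with 1292, 1558 and 2050 against 742, 961 and 757 (-0.99 ± 0.15 SE), just short of the fold required. The smallest difference was that of *Zfp229*, with 791, 939 and 829 counts against 676, 678 and 663. Genes at both ends and in the middle were on the same side of 0. That the groups did not overlap in any of the 10 is the background state of the table (98.3%). Leaving out a library changed 2 calls here, since *Zfp946* dropped to -0.94 without control 6 and to -0.89 without GKO 5, and *Zfp820* passed at -1.13, -1.03 and -1.15 without control 1, control 2 and GKO 4.

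Promoters of this cluster are shown because some of its genes share sequence there. *Zfp942* and *Zfp943* start 87 bp apart and point away from each other, and *Zfp944* and *Zfp758* do the same 52 bp apart. These were the only pairs of the 70 genes with head-to-head starts within 1000 bp. Their log2 fold changes were -0.49 and -0.52 in the first pair and -0.68 and -0.86 in the other. The 250 bases upstream of each start were taken from RefSeq (GRCm38.p6), which matched 56 of the 70 genes, 51 of them within 300 bases of the start in the table. In the sequences that follow, written 5′ to 3′ on the strand of the gene, capitals mark an E-box (CACGTG) or an ETS core (CCGGAA, on either strand). The window of *Zfp160*, the gene with the largest fall of the cluster, holds neither motif and is not printed.

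Zfp942, chr17:21962465-21962714, minus strand: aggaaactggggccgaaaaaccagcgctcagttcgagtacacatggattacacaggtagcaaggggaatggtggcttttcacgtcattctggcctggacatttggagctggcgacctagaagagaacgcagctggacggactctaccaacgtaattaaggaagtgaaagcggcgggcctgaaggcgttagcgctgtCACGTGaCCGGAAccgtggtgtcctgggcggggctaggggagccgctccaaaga

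Zfp944, chr17:22361401-22361650, minus strand: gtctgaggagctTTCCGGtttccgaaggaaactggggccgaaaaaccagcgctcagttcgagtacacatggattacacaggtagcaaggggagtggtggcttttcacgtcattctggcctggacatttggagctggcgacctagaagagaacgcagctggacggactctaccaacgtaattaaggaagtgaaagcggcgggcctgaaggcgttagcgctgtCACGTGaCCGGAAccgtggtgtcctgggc

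Zfp946, chr17:22423952-22424201, plus strand: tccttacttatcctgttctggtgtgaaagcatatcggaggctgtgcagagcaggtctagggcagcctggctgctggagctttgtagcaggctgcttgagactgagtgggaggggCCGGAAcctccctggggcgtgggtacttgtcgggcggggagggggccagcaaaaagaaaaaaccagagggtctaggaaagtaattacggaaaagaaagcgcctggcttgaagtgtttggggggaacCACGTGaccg

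Zfp820, chr17:21845760-21846009, minus strand: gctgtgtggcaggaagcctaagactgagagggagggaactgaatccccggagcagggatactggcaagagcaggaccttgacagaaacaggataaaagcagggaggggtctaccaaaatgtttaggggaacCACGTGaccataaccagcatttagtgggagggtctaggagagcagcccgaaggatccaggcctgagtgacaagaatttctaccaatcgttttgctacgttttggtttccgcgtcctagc

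The windows of *Zfp942* and *Zfp944* matched at 224 of 225 aligned bases. Those of *Zfp943* and *Zfp758*, on the other strand, shared an unbroken run of 198 bases. Head-to-head windows overlap only in part, by 94 bases for *Zfp942* and *Zfp943* and by 62 for *Zfp944* and *Zfp758*. Within each pair 1 E-box lies beside 1 ETS core, 1 base apart, and both genes' windows hold it. The windows of *Zfp946* and *Zfp820* shared a run of 16 bases with the E-box inside it, and matched at 76 of 173 bases aligned without gaps. Of 8 motifs searched on both strands, the E-box stood in 7 of the 9 listed genes of the cluster with a promoter (77.8%), in 1 of the 9 annotated genes there that were not listed (11.1%), and in 6.02% of 32851 mouse promoters. It stood in none of the 17 other lower KRAB promoters. The ETS core stood in 6 of the 9 (66.7%), in 5 of the 9 unlisted neighbours (55.6%) and in 12.0% of all promoters. Copies of a segment are not independent, and a gene that was not listed may simply be silent in oocytes, so these shares describe letters only.

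The CCAAT box, the sequence read by NF-Y, showed another distribution. It stood in 15 of the 17 lower KRAB promoters outside this cluster (88.2%) and in 3 of the 9 inside it (33.3%), beside 45.3% of 287 promoters of unlisted genes of the same names and 33.8% of all promoters. The share was 55.6% in unlisted genes of this cluster, 56.2% in genes with neither domain listed and 1 of 6 in higher KRAB genes. The 15 include all 5 lower promoters of the chromosome 4 clusters and the near-identical copies *Zfp955a* and *Zfp955b*, so they are not independent and describe letters only. The TATA box (TATAAA) was in 0 of the 56 promoters and in 12.4% of all promoters. The GC box (GGGCGG) was in 7 of the 9 listed promoters of the first cluster (77.8%), in 5 of its 9 unlisted ones and in 32.7% of all promoters. The other motifs searched were the CRE (TGACGTCA) and the NRF1 core (GCGCATGC), each in 0 of the 9 and in 1.55% and 2.26% of all promoters, and the ZNF143 core (ACTACA), in 1 of the 9 and in 8.92% of all promoters. None of the 8 motifs contains another.

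**Figure D3:**
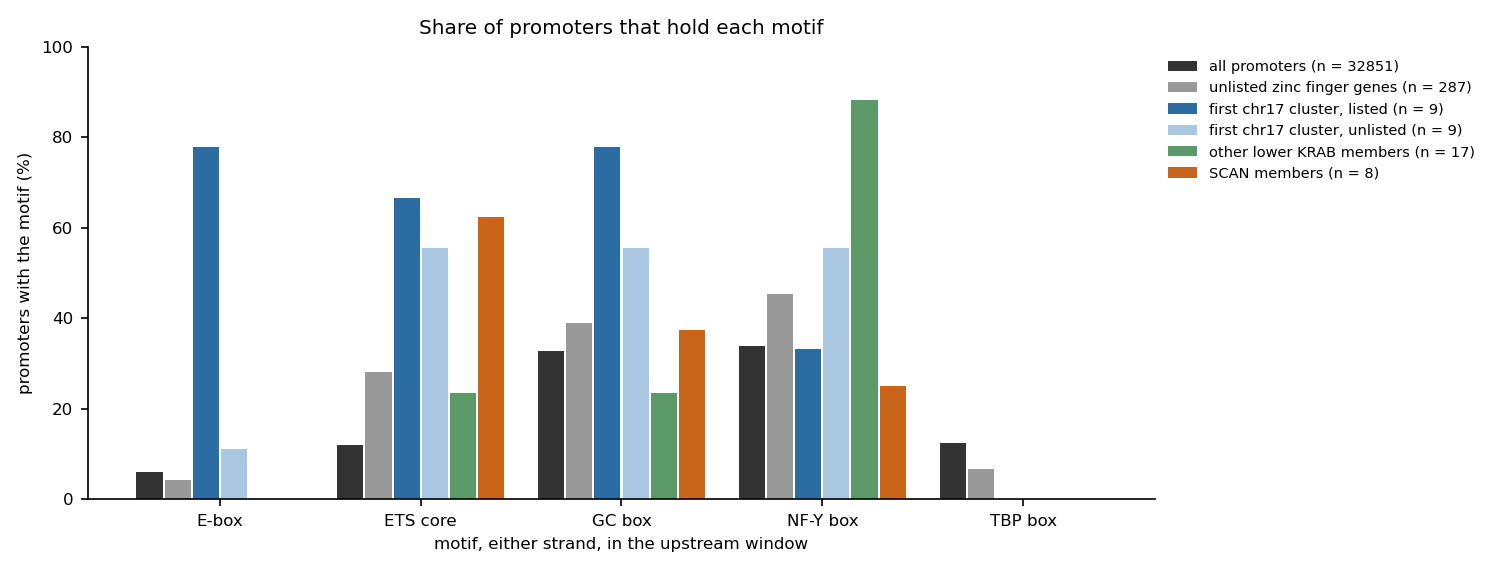
Percentage of promoters (vertical axis) that hold each of 5 motifs (horizontal axis) in the 250 bases upstream, for 6 sets of promoters, with the NF-Y box standing for CCAAT and the TBP box for TATAAA. The E-box bar of the listed genes of the first chromosome 17 cluster reaches 77.8%, against 11.1% for unlisted genes of the same cluster and 6.02% for all promoters.

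The second cluster of chromosome 17, chr17:32879228-33394641, held *Zfp870*, *Zfp955a*, *Zfp955b* and *Zfp101*, 4 of 9 annotated genes, all KRAB and all lower. Their sum was 31.8% below the control mean, with 8739, 7587 and 7675 in control and 5319, 6091 and 4958 in Ehmt2 GKO libraries. *Zfp870* was called, with 80, 56 and 55 counts in control and 34, 25 and 22 in Ehmt2 GKO libraries (-1.25 ± 0.32 SE), a call that was lost without control 1 at -1.04. *Zfp955a* and *Zfp955b* are near-identical copies, so their counts may be split between them. *Zfp955b*, the stronger, had 5580, 5173 and 5370 counts against 3706, 4091 and 3477. *Ehmt2* lies on the same chromosome at chr17:34898469-34914052 in GENCODE, 1.5 Mb from this cluster and 12.44 Mb from the longer one. Both groups carried the floxed allele there, and an effect of position near the deleted gene cannot be told apart from other effects. Within 2 Mb of the cluster, 8 other genes were tested, and 5 were lower and 3 higher. Around the longer cluster 3 were tested, 1 lower and 2 higher. In the flanks of the other clusters, 2 of 8 and 1 of 1 were lower on chromosome 4, 5 of 6 on chromosome 7 and 7 of 11 on chromosome 13.

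On distal chromosome 4 lay a pair of KRAB clusters. The first, chr4:145510759-146470292, held 4 of 6 annotated genes and the widest spread of any cluster. *Zfp992* showed the largest fall among the zinc finger genes, from 126, 202 and 148 counts in control to 25, 29 and 40 in Ehmt2 GKO libraries (-2.34 ± 0.28 SE, adjusted P 2.31e-06 in edgeR's quasi-likelihood test). It has near-identical copies in *Zfp991* and *Znf41-ps*, and reads shared with them make its level uncertain. *Zfp990*, at the other end, was at 2, 10 and 1 counts in control and at 87, 98 and 3 in Ehmt2 GKO libraries, so GKO 5 stood within the control range and the other two far above it. Its log2 fold change was 3.81 ± 0.86 SE, or 4.37 without GKO 5 and 5.26 without control 2. *Zfp980* and *Zfp987* between them were lower, at -0.56 and -0.66. *Zfp987* has 4 near-identical copies, among them *Zfp534* of the next cluster, so counts may be split between these genes and the sums of both clusters may share reads. Summed over the cluster, counts were 33.8% below the control mean.

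The other cluster of chromosome 4, chr4:147492417-147702553, held *Zfp982*, *Zfp985* and *Zfp534*, 3 of 4 annotated genes. *Zfp982* had the highest level per kb of exon of all 70 genes, 2818 normalised counts per kb in control oocytes and 1898 after deletion. Its counts were 3832, 4054 and 4673 in control and 2684, 3238 and 2558 in Ehmt2 GKO libraries (-0.57 ± 0.12 SE). *Zfp985* was called lower, with 83, 51 and 83 counts against 42, 24 and 20 (-1.34 ± 0.34 SE). The cluster's sum was 34.4% below the control mean, so the 4 KRAB clusters of chromosomes 4 and 17 were lower by 31.8% to 38.4%.

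The clusters on chromosomes 7 and 13 were mixed. On chromosome 7 (chr7:6131491-6331285), *Zfp787* fell from 40, 26 and 42 counts to 16, 13 and 8 (-1.54 ± 0.39 SE) and *Zfp583* from 64, 58 and 41 to 18, 29 and 29 (-1.11 ± 0.34 SE). Between them *Zfp444*, a SCAN gene, was higher, with 78, 90 and 67 counts in control and 163, 149 and 124 in Ehmt2 GKO libraries (0.88 ± 0.22 SE). The call of *Zfp787* was lost without GKO 5 at -1.31, and that of *Zfp583* without control 1, control 2, GKO 3 or GKO 5, with values from -1.21 to -0.91. On chromosome 13 (chr13:67194506-67500555), *Zfp455* was at 0 in all 3 control libraries and at 10, 31 and 14 counts in Ehmt2 GKO libraries, at least 6.15-fold higher against a floor of 3 counts per library. It did not reach the count minimum of the test. *Zfp595* was higher (0.69 ± 0.23 SE) and *Zfp58* lower (-0.61 ± 0.19 SE) in the same cluster, and 8 more annotated genes there were not listed.

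**Figure D4:**
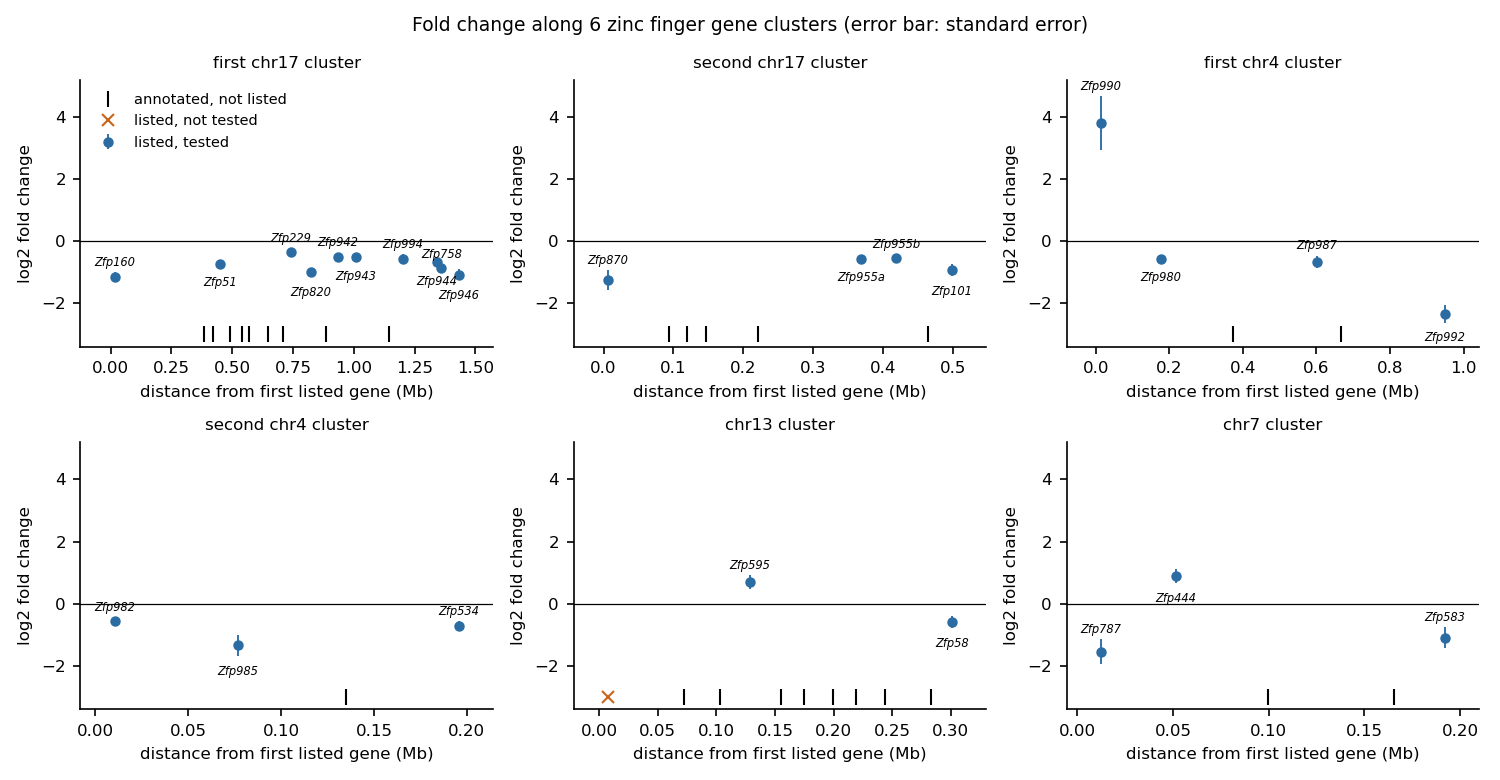
Log2 fold change with its standard error (vertical axes) against distance from the first listed gene in Mb (horizontal axes) in the 6 clusters, with ticks for annotated genes of the same names that were not listed and a cross for *Zfp455*, which was not tested. Every point of the chromosome 17 clusters lies below 0, between -1.25 and -0.35, while *Zfp990*, *Zfp444* and *Zfp595* lie above it.

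Outside clusters, 14 KRAB genes were tested, 9 lower and 5 higher. *Zfp809* recognises the primer binding site of murine leukaemia viruses and silences them through TRIM28 in embryonic cells. It fell from 68, 91 and 101 counts in control to 30, 43 and 19 in Ehmt2 GKO libraries (-1.50 ± 0.32 SE, adjusted P 0.00054 in edgeR's quasi-likelihood test). *Zfp819*, a KRAB gene tied to repression of endogenous retroelements in pluripotent cells, rose from 159, 169 and 255 to 418, 443 and 382 (1.09 ± 0.18 SE). These 2 genes of related function thus moved in opposite directions. *Zfp345* fell from 1815, 2145 and 2147 to 1135, 850 and 894 (-1.09 ± 0.12 SE). *Zfp780b* fell from 36, 56 and 30 to 13, 19 and 12 (-1.47 ± 0.39 SE). Without control 1 or control 2 *Zfp819* came to 0.97 and 0.99, just short of the call, and *Zfp780b* missed it on P without control 2, GKO 3 or GKO 5, at -1.18, -1.38 and -1.34.

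The KRAB gene with the most reads went the other way. *Zfp735* had 5983, 5849 and 6244 counts in control and 10938, 10794 and 9559 in Ehmt2 GKO libraries (0.78 ± 0.10 SE). In level it reached 1547 normalised counts per kb in control and 2664 in Ehmt2 GKO oocytes, which put it above *Zfp982* in the Ehmt2 GKO oocytes and below it in control. *Zfp51* (1677 and 1020 per kb), *Zfp955b* (932 and 648) and *Zfp345* (746 and 349) completed the 5 highest levels, and these 3 were lower in Ehmt2 GKO oocytes. *Zfp235* was also higher, with 410, 481 and 517 counts against 858, 769 and 1014 (0.90 ± 0.13 SE). *Zfp707* was near the floor in control, with 1, 3 and 0 counts against 12, 10 and 12, a ratio of 8.45 with a 95% exact interval of 3.01 to 32.8 that covers counting error only.

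The 10 SCAN genes lay on 9 chromosomes, and 1 of them was in a cluster. *Zkscan4* was the only one called, with 56, 61 and 79 counts in control and 139, 157 and 117 in Ehmt2 GKO libraries (1.07 ± 0.24 SE, adjusted P 0.000637 in edgeR's quasi-likelihood test). It came to 0.98 without control 1 and 0.94 without GKO 4, short of the call. *Zscan10*, a factor of the pluripotency network of embryonic stem cells, had 69, 112 and 108 counts against 169, 171 and 216 (0.94 ± 0.22 SE), and it was the one zinc finger gene of chromosome 17 that was higher. It passed the call without control 2 (1.05), control 6 (1.00) or GKO 3 (1.01), as *Zscan29* did without control 2 (1.04). *Zfp445*, which protects methylation of imprinted regions together with *Zfp57*, had 500, 607 and 560 counts against 860, 724 and 864 (0.55 ± 0.12 SE), the smallest difference of the 10. *Zfp449* had the most reads, with 889, 1107 and 1097 against 1588, 1678 and 1510 (0.62 ± 0.11 SE). *Zfp110*, *Zkscan1*, *Zfp263*, *Zfp24* and *Zscan29* lay between 0.59 and 0.76. Their log2 fold changes ranged from 0.55 to 1.07. Control and Ehmt2 GKO libraries did not overlap in any of the 10, beside 98.3% of all genes tested.

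The upstream windows of 3 SCAN genes are printed because their ETS cores lie close to the start. Capitals again mark the ETS core and the E-box.

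Zkscan4, chr13:21478599-21478848, plus strand: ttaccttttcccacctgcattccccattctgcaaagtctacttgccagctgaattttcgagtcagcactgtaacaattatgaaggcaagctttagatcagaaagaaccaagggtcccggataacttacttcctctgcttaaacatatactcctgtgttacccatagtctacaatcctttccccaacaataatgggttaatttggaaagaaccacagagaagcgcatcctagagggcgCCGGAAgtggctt

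Zfp263, chr16:3743849-3744098, plus strand: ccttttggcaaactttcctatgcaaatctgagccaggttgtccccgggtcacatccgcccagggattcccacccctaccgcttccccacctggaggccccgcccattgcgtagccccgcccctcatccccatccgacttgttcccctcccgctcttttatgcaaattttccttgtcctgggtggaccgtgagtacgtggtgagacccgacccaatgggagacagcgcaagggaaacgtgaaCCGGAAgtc

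Zfp110, chr7:12834511-12834760, plus strand: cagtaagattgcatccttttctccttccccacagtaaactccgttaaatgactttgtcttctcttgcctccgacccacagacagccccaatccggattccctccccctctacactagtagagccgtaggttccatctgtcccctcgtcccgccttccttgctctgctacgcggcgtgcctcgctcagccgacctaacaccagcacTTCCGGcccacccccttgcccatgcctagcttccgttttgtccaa

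An ETS core stood in 5 of the 8 SCAN promoters matched (62.5%) and in 34.4% of the KRAB promoters matched. It stood in 28.2% of promoters of unlisted zinc finger genes and in 12.0% of all promoters. The share was 66.7% in the listed genes of the first chromosome 17 cluster, so it was not particular to SCAN genes. With only 8 SCAN promoters, these shares describe letters only. None of the 8 held the E-box. These windows are not copies of each other, since the longest run that any pair of the 3 shared was 9 bases.

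Among the 21 genes with neither domain listed, 5 were called lower and 5 higher (47.6%, beside 35.7% of all listed genes tested). *Zfp281*, a transcription factor of the pluripotency network, fell from 391, 421 and 308 counts to 184, 142 and 120 (-1.34 ± 0.19 SE, adjusted P 1.27e-05 in edgeR's quasi-likelihood test). Its direction was opposite to that of *Zscan10*. *Zfp385b*, which carries matrin-type fingers that bind RNA, fell from 262, 268 and 191 to 69, 82 and 102 (-1.52 ± 0.22 SE). *Zfp710* fell from 105, 121 and 75 to 46, 29 and 40 (-1.40 ± 0.29 SE).

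The 5 called rises in this class were of genes with fewer than 100 counts in every control library. *Zfp521*, a regulator of blood and neural progenitors, rose from 8, 8 and 16 counts to 41, 28 and 56 (1.95 ± 0.42 SE). *Zfp292* was at 4, 33 and 39 against 74, 69 and 64 (1.44 ± 0.45 SE), with control 1 far below the other two. *Zfp507* rose from 10, 26 and 10 to 52, 39 and 34 (1.42 ± 0.41 SE). The call of *Zfp292* was lost without control 1 at 0.94 and without any 1 of the Ehmt2 GKO libraries at 1.40 to 1.50, and that of *Zfp507* without control 1, control 6, GKO 3 or GKO 4 at 1.18 to 1.44. *Zfp687* was at 60, 92 and 63 against 144, 104 and 247, and *Zfp574* at 35, 30 and 28 against 60, 44 and 98. In both of these GKO 5 was the highest library, and without it they came to 0.78 and 0.73 and lost the call, as *Zfp574* also did without control 2 (1.07) or control 6 (1.01). *Zfp687* overlaps *Pi4kb* in the annotation and starts 176 bp from *4930481B07Rik*, which was lower (-1.52), so the directions in that head-to-head pair differed. Of the 70 genes, 26 overlap another annotated gene, and the amplification kit named in the labels does not mark strand.

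**Figure D5:**
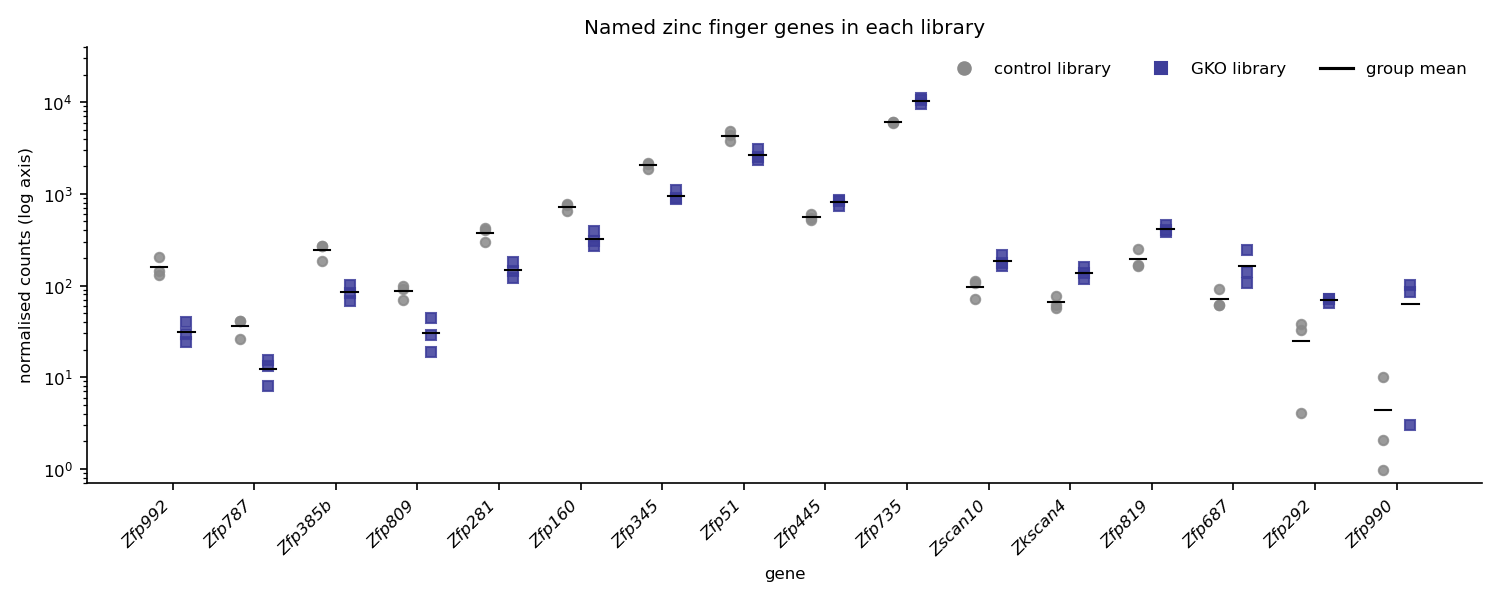
Normalised counts (vertical axis, log scale) of 16 zinc finger genes (horizontal axis) in each of the 3 control (grey circles) and 3 Ehmt2 GKO libraries (blue squares), with group means as black lines. The groups are apart in 15 of the 16 genes, and in *Zfp990* 1 Ehmt2 GKO library sits among the controls.

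The proteins that work with KRAB zinc fingers were mostly absent from the table. Of 45 corepressor and H3K9 methylation genes, 6 were listed, 3 lower and 3 higher, with 1 called (16.7%, beside 35.7% of all listed genes tested). That one was *Kdm3a*, an H3K9 demethylase, with 69, 63 and 77 counts in control and 170, 127 and 131 in Ehmt2 GKO libraries (1.02 ± 0.22 SE), and it came to 0.95 without control 2 and 0.89 without GKO 3. *Setdb1*, the methyltransferase that TRIM28 recruits, had 1471, 1574 and 1666 counts against 987, 962 and 1002 (-0.68 ± 0.10 SE). *Cbx1*, which encodes HP1 beta, was at -0.70 ± 0.12 SE. *Mphosph8* of the HUSH silencing complex was higher (0.49 ± 0.10 SE), as was *Daxx*, the chaperone of histone H3.3 (0.68 ± 0.15 SE). The zinc finger partners of EHMT2 in the list, 4 genes that include *Zfp644*, had 0 listed.

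Of 153 named C2H2 factors outside these names, such as the KLF, SALL and ZBTB families, 23 were listed, 17 higher and 6 lower (median 0.47). Of these, 4 were called higher and 2 called lower (26.1%, beside 35.7% of all listed genes tested). *Klf4* rose from 81, 36 and 57 counts to 96, 127 and 208 (1.30 ± 0.32 SE), or 0.94 and not called without GKO 5. *Gli2*, an effector of Hedgehog signalling, fell from 111, 80 and 113 to 39, 18 and 39 (-1.67 ± 0.31 SE).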

How the data were processed

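RNA from oocytes was amplified with a Smart-Seq v4 kit and sequenced, and 6 libraries were used. The submitters' processing notes name HISAT2, DESeq2 and GRCm38. The counting program is not given in the sources used here. The authors deposited whole-number counts of reads per gene without normalization. The authors also deposited results of their own comparison (the fold as a ratio, the log2 of it, p-values raw and adjusted). None was used, beyond checking that all 2615 adjusted p-values were below 0.05. RRBS samples were not analysed here.

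All listed genes were fitted together in R 4.3.3 with edgeR 4.0.16 (filterByExpr at 10 counts, TMM scaling, quasi-likelihood test, Benjamini-Hochberg adjustment over 2516 genes), without covariates. A call required a difference of over 2-fold and an adjusted P under 0.01. Normalised counts were counts divided by size factors of 0.973 to 1.03. The fit was tested on simulated data. Alternatives were DESeq2 1.42.0, other scalings, other filters and leaving out each library. Near-identical copies were transcripts with at least 95% identity over 50% of the length in blastn 2.17.0. Low-count intervals used scipy 1.17.1, and figures matplotlib 3.10.9, run from Python 3.11.15 (pandas 2.3.3, numpy 2.4.6). Promoter sequences were RefSeq's.

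Named genes were the 8 strongest falls and 8 strongest rises of those called (mean of at least 20 counts, no overlap between groups), members of role lists, the 5 highest per kb, the extremes of each cluster, and genes at 3 counts or fewer in every library of a group. Other genes were named after their values were seen. The genes, lists and motifs were chosen with earlier results of these data known. The values of 1 gene of the corepressor list are not reported here.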

Additional observations from a re-analysis of the deposited data

How the results depend on the processing

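Counts of called genes depended most on how the fold change was required. Tested against a fold of 2, rather than with the fold as a limit on the estimate, 260 of all listed genes were called in place of 897, and the zinc finger calls went from 9 to 0 higher and from 15 to 1 lower (*Zfp992*), the corepressor and H3K9 list from 1 to 0 and the other C2H2 factors from 6 to 2. A minimum of 10 counts in every library left 5 zinc finger genes called higher and 3 other C2H2 factors. Without 1 library, calls ranged from 791 to 916 for all genes, from 5 to 10 for zinc finger genes higher and from 10 to 16 for those lower, with 5 and 10 when GKO 5 was left out. The corepressor call, *Kdm3a*, ranged from 0 to 1, and it was lost without control 2 or GKO 3. The other C2H2 factors ranged from 4 to 7. In all 14 alternatives each zinc finger gene kept its direction, the 10 SCAN genes were higher, and the 14 genes of the chromosome 17 clusters and 31 KRAB genes were lower. Listing required a difference between these same libraries, so a change of direction was unlikely from the start. The test against a fold of 2 and a limit of 0.05 on the adjusted P keep the same estimates and cannot change it. Single calls were less stable, since 24 of the 46 named zinc finger genes that were tested changed sides in at least 1 alternative. *Zfp946* and *Zfp583* lost the call in 6 alternatives each, and *Zfp507* and *Zfp292* in 5 each. *Zfp583* came to -1.01 with DESeq2. *Zscan10* gained it in 6, among them RLE, upper-quartile and DESeq2 scaling (1.02 to 1.03), under which *Zfp946* lost it (-0.99). A neighbour distance of 0.5 Mb put 27 genes in 6 clusters, and one of 2 Mb put 28 genes in 5 clusters. At 2 Mb the pair of clusters on chromosome 4 merged. *Zscan10*, which was higher (0.94), then joined the longer chromosome 17 cluster, so that cluster was no longer all lower. No paired analysis was possible because control and Ehmt2 GKO libraries have no replicate number in common. Depth limited genes with under about 20 counts, such as *Zfp707* and *Zfp455*.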

Other observations

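Genes outside the naming rule also carried a KRAB domain in the table. Of 28 such genes, 26 were tested, 18 lower and 8 higher, with a median log2 fold change of -0.55. Among the 13 that code for protein, 10 were lower and 3 higher. The 2 with the widest differences lie close together on chromosome 13, on the side of *Zfp455* with lower coordinates, and whether they share reads with each other was not tested. *2410141K09Rik* (chr13:66418114-66441118), protein-coding, had 495, 395 and 484 counts in control and 3, 4 and 4 in Ehmt2 GKO libraries (-6.92 ± 0.27 SE). *AC167192.3* (chr13:66281136-66284067), a processed pseudogene, had 1232, 1012 and 1042 counts against 5, 4 and 3 (-8.06 ± 0.23 SE). Between *AC167192.3* and *Zfp455* the processed pseudogene *AC164297.1* went the other way, with 21, 14 and 19 counts against 84, 106 and 68 (2.24 ± 0.33 SE). On chromosome 1, *Gm28363* had 11, 23 and 23 counts in control and 260, 294 and 125 in Ehmt2 GKO libraries (3.56 ± 0.35 SE), while 4 listed KRAB neighbours, *Zfp813-ps*, *B020011L13Rik*, *Gm7145* and *Gm29106*, were lower, at -0.64, -0.50, -0.56 and -0.54. *Gm19965*, farther out on the same chromosome, was higher, at 0.79.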
